A study of Mus musculus with 18 samples.

Results

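The transcription factor Myc and 34 named ribosome biogenesis factors were followed in RNA from mouse CD4+ T cells that lack the prolyl hydroxylases PHD1, PHD2 and PHD3, or in which these enzymes were inhibited. The 35 genes were chosen by name, with earlier results of these data known. They were read from each deposited table by gene symbol, with distinct entries of a symbol summed. Entries were found for 34 of the 35, among 22783 symbols in experiment 1 and 16639 in experiment 2, and all 34 passed the filter of a mean of at least 1 FPKM in both experiments. Noc2l was not analysed here.

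Naive CD4+ T cells sorted from spleens of C57BL/6 mice were activated through CD3 and CD28 for 4 days. Experiment 1 had 6 groups of 2 libraries: tKO cells, with Cd4Cre and floxed (fl/fl) alleles of Egln2 (PHD1), Egln1 (PHD2) and Egln3 (PHD3), and WT cells, with Cd4Cre alone, each cultured with 0, 0.2 or 2 ng/ml TGF-b. Experiment 2 had 3 libraries of wildtype cells given 1 mM of the PHD inhibitor DMOG (dimethyloxaloylglycine) and 3 of wildtype cells given vehicle, all with 2 ng/ml TGF-b. The values are FPKM (fragments mapped per kilobase of a transcript, scaled to library size), a level per transcript length. Both genotypes of experiment 1 carry the Cd4Cre transgene, which deletes floxed alleles in developing T cells, CD8 lineage included. DMOG inhibits other 2-oxoglutarate-dependent dioxygenases besides the PHD proteins. The labels do not say whether libraries of a group came from separate animals, so the p-values measure the spread between these libraries, which may be technical. In experiment 1 the doses of a genotype carry the names of 4 labelled series, 2 for each genotype, and may share cells.

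Myc binds DNA as a dimer with Max at the sequence CACGTG and is induced when T cells are activated, before they grow and divide. Ribosome biogenesis starts in the nucleolus, where RNA polymerase I transcribes the precursor of the ribosomal RNAs. Small nucleolar ribonucleoproteins (snoRNPs) modify this precursor, and assembly factors fold and cut it into the small (40S) and large (60S) subunits. Many genes of this pathway are known Myc targets. PHD enzymes hydroxylate the HIF proteins and so mark them for degradation. HIF-1 is known to interfere with Myc through several routes, among them induction of the Max-binding repressor Mxi1.

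The E-box CACGTG, which reads the same on both strands, was looked for in RefSeq promoters of build GRCm38.p6, from 250 bases before to 50 after each gene's start. It occurred in 7 of the 28 members with a promoter (25%), in 12.3% of 7588 tested genes and in 8.09% of 27025 symbols. The core of the hypoxia response element, ACGTG on either strand, which every CACGTG also holds, occurred in 12 of the 28 (42.9%), in 31.0% of the tested genes and in 21.8% of all symbols. The 7 members with the E-box were Nop2, Ltv1, Utp20, Pes1, Pno1, Tsr1 and Wdr43. The 4 promoters below belong to the members with the E-box that had the smallest p with DMOG, and the capitals mark CACGTG.
Tsr1 (strand +, chr11:74897830-74898129): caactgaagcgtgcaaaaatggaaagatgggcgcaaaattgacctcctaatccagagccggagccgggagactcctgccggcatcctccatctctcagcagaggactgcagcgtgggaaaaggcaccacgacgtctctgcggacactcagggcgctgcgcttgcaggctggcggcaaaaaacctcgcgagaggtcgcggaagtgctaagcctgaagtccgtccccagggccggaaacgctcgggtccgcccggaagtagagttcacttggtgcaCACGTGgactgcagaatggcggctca
Ltv1 (strand -, chr10:13193088-13193387): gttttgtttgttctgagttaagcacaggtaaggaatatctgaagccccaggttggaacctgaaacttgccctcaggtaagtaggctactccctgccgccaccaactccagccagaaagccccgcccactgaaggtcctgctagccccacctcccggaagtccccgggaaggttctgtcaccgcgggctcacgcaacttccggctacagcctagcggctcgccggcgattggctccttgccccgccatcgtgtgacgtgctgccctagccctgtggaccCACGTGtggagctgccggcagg
Nop2 (strand +, chr6:125131633-125131932): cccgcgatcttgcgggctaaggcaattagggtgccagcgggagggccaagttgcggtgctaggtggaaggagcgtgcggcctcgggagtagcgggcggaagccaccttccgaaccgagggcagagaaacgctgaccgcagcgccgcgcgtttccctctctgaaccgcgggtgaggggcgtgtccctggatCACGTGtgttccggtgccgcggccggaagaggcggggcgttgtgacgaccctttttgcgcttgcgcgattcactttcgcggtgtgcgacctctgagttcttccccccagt
Wdr43 (strand +, chr17:71615965-71616264): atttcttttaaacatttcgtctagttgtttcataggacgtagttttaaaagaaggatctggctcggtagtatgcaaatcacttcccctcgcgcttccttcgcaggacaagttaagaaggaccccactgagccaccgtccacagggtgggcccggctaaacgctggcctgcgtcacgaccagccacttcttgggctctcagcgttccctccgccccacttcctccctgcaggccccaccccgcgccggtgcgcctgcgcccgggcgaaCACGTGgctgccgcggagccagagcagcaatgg
In Nop2 the first base of the E-box lies at -60 from the start, and in the others it lies downstream of the start, at 17 bases in Wdr43, 24 in Tsr1 and 28 in Ltv1. These matches describe the letters of the promoters and not binding. The promoters of Rrs1, Myc, Bop1, Fbl, Npm1 and Rrp12 were not used here.

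The members spanned most of the range of expression. In experiment 1 the level was highest for Npm1, which encodes the nucleolar chaperone nucleophosmin, with a mean of 2790 FPKM over the 12 libraries. It was lowest for Utp20, a component of the early small subunit precursor, with 2.89 FPKM. Myc averaged 143 FPKM and lay above 92.6% of the genes tested. Utp20 was also lowest in experiment 2, at 9.15 FPKM, and Npm1 highest, at 862 FPKM. Npm1 and several other members have processed pseudogenes, and entries of overlapping genes cannot be told apart with a library kit that does not mark strand, so their levels are uncertain to that degree.

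Some libraries stood apart by transcript length. Relative to the other libraries, transcripts under 1500 bases deviated by a median of 0.47 (log2) in replicate 2 of tKO at 0.2 ng/ml, 0.28 in replicate 2 of tKO at 0 ng/ml, and -0.31 and -0.30 in the tKO libraries at 2 ng/ml. The 8 other libraries of experiment 1 and the 6 of experiment 2 stayed between -0.09 and 0.11. The fits were repeated with a correction for transcript length, which ended the calls of Fbl for TGF-b in tKO and of Polr1c between the genotypes at 0.2 ng/ml and of no other member called in experiment 1. The libraries held T cell transcripts (all 8 marker genes above 1 FPKM). Summed T cell marker levels were 1853 to 2234 FPKM in tKO and 2358 to 3212 FPKM in WT libraries. Of the other cell types, B cell markers summed to 15.4 to 83.0 FPKM in tKO and 14.4 to 60.5 FPKM in WT. Dendritic cell markers summed to 695 to 896 FPKM in tKO and 277 to 908 FPKM in WT. Of the 4 dendritic genes only 2, Cd74 and H2-Aa, passed the filter. The dendritic gene Itgax was at 0 in all groups but tKO at 2 ng/ml, and Flt3 was at 0 in tKO at 0 and 0.2 ng/ml. CD8 markers summed to 7.49 to 14.6 FPKM in tKO and 4.02 to 8.84 FPKM in WT, and NK markers to 1.02 to 8.39 FPKM in tKO and 0.0533 to 2.41 FPKM in WT. Myeloid markers reached 1.35 FPKM in tKO and 4.46 FPKM in WT, with Lyz2 and S100a8 at 0 in all groups, as was the NK gene Ncr1. Whole-gene FPKM of the targeted genes does not test the deletion, since transcripts of floxed alleles can persist: over the doses, Egln1 was 1.84 and Egln3 3.13 (log2) higher in tKO than in WT, and Egln2 was lower, at -0.64 (limma, adjusted p = 3.43e-08, 3.30e-09 and 0.00572).

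**Figure D1:**
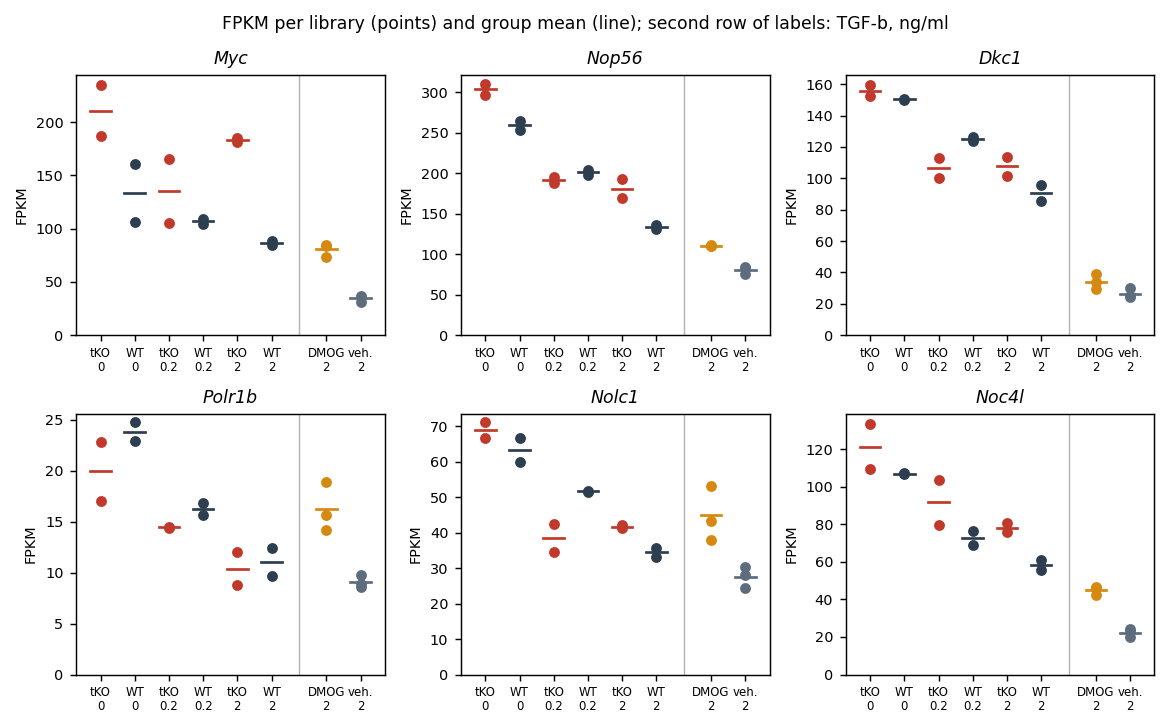
FPKM of 6 members (vertical axes) in every library (points) with group means (lines), by genotype and TGF-b dose in ng/ml on the left of each panel and for DMOG and vehicle (veh.) on the right. Myc was at 181 and 185 FPKM in tKO libraries at 2 ng/ml, against 84.6 and 88.7 FPKM in WT libraries, and at 73.4 to 85.1 FPKM with DMOG, against 31.3 to 37.1 FPKM with vehicle.

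Myc was higher in tKO than in WT cells over the doses and at 2 ng/ml TGF-b. In tKO libraries Myc (chr15:61816895-61821916, mm9) had 234 and 187 FPKM at 0 ng/ml, 166 and 105 FPKM at 0.2 ng/ml, and 181 and 185 FPKM at 2 ng/ml. In WT libraries it had 161 and 106 FPKM at 0 ng/ml, 109 and 105 FPKM at 0.2 ng/ml, and 84.6 and 88.7 FPKM at 2 ng/ml. Every tKO library lay above every WT library at 0 ng/ml (25.8% of all genes) and at 2 ng/ml (29.1%). At 0.2 ng/ml the genotypes overlapped. Averaged over the doses, Myc was 0.68 ± 0.13 (log2 of FPKM + 1, ± SE) higher in tKO, with an adjusted p of 0.00174 in limma with Benjamini-Hochberg adjustment over all 10354 genes. It remained called when the doses were first averaged within each labelled series (adjusted p = 0.00971). At 2 ng/ml the difference was 1.07 ± 0.23 (adjusted p = 0.00686), and it missed the threshold of 0.05 without replicate 1 (adjusted p = 0.0565) or replicate 2 (adjusted p = 0.0645) of tKO at that dose. At 0 ng/ml (0.68, adjusted p = 0.0920) and 0.2 ng/ml (0.30, adjusted p = 0.410) it was not called. T cell markers moved with genotype too: 6 of 8 were lower in tKO over the doses, with a median of -0.50. The 1 NK marker tested, Klrk1, was higher in tKO (1.74, adjusted p = 5.23e-04), as was the 1 CD8 marker tested, Cd8b1 (0.77, adjusted p = 0.0131). The part of these markers in the Myc difference was not tested. In bulk RNA, fewer cells of a type and less RNA per cell cannot be told apart.

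The TGF-b response of Myc itself was not called in either genotype. At 2 against 0 ng/ml its change was -0.19 in tKO (adjusted p = 0.618) and -0.59 in WT (adjusted p = 0.107). The genotype difference of this effect, tested as an interaction, was 0.40 ± 0.33 (adjusted p = 0.548). So a smaller response in tKO was not shown. The comparisons between genotypes and those between doses share libraries, so their values are set side by side and not correlated.

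With DMOG, Myc had the largest change of all members. It had 85.1, 73.4 and 83.7 FPKM with DMOG, against 37.1, 31.3 and 35.5 FPKM with vehicle. All DMOG libraries lay above all vehicle libraries (30.3% of all genes). The difference was 1.20 ± 0.11 (limma, adjusted p = 8.64e-08), and the call held under every alternative and without any of the 6 libraries (adjusted p at most 1.48e-04). The tKO and DMOG comparisons share no library, and Myc was the only member called higher in both at 2 ng/ml TGF-b. Of all genes, 7.82% were called higher in tKO at that dose and 27.7% with DMOG.

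Among the genes whose products bind Max or compete with Myc, Mxi1 and Mxd4 had the smallest p-values in both experiments. Mxi1 was 2.07 ± 0.16 higher in tKO over the doses (limma, adjusted p = 5.37e-07) and 2.66 ± 0.11 higher with DMOG (adjusted p = 1.16e-12). Mxd4, another Max-binding repressor, was lower in tKO over the doses (-0.80 ± 0.12, adjusted p = 2.06e-04) and with DMOG (-3.10 ± 0.14, adjusted p = 6.36e-12). By dose, its genotype difference was not called at 0 ng/ml (0.41, adjusted p = 0.268), and was -0.97 at 0.2 ng/ml (adjusted p = 0.00586) and -1.83 at 2 ng/ml (adjusted p = 6.47e-05). Mxd4 also rose with TGF-b at 2 ng/ml, by 1.08 ± 0.20 in tKO (adjusted p = 0.00344) and by 3.32 ± 0.20 in WT (adjusted p = 1.22e-06). Its rise was smaller in tKO, with an interaction of -2.24 ± 0.29 (adjusted p = 0.00182). Mxd1, a further Max-binding repressor, went the other way. It rose at 2 ng/ml in tKO (1.56 ± 0.23, limma adjusted p = 7.10e-04) and was not called in WT. The interaction for Mxd1 was 1.92 ± 0.32 (adjusted p = 0.00775). Against WT, Mxd1 was lower in tKO at 0 ng/ml (-1.105, adjusted p = 0.00690) and higher at 2 ng/ml (0.81, adjusted p = 0.0286). Max, the shared partner, was lower in tKO over the doses (-0.45 ± 0.14, adjusted p = 0.0271). Of the 9 genes of this list tested, 1 was higher and 2 were lower in tKO over the doses, and 2 were higher and 2 lower with DMOG.

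At 2 ng/ml TGF-b part of the members was lower in each genotype. Against 0 ng/ml, 21 of the 34 members fell in tKO, where 10.4% of all genes were called lower, and 15 of 34 fell in WT, where 7.91% were. None was called higher, while 7.59% of all genes were in tKO and 7.79% in WT. The median change of the members was -0.65 in tKO and -0.63 in WT, and all 34 were below 0 in both, while the medians of all genes were -0.01 and -0.02. Every library at 2 ng/ml lay below every library at 0 ng/ml for 31 members in tKO (32.2% of all genes) and for 32 in WT (31.5%). The exceptions were Polr1a, Rrp12 and Tsr1 in tKO, and Polr1a and Utp20 in WT. Without any 1 library of the compared doses, the median of the members was -0.63 to -0.69 in tKO. In WT it was -0.62 to -0.67. The share of all genes called in such fits is not given here, so the counts below may fall with those of all genes. The counts depended on single libraries: 5 members were called in tKO without replicate 2 at 0 ng/ml or replicate 1 at 2 ng/ml, and 6 without replicate 2 at 2 ng/ml. In WT, 7 and 8 were called without replicate 1 or 2 at 0 ng/ml, and 9 and 8 without replicate 1 or 2 at 2 ng/ml.

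**Figure D2:**
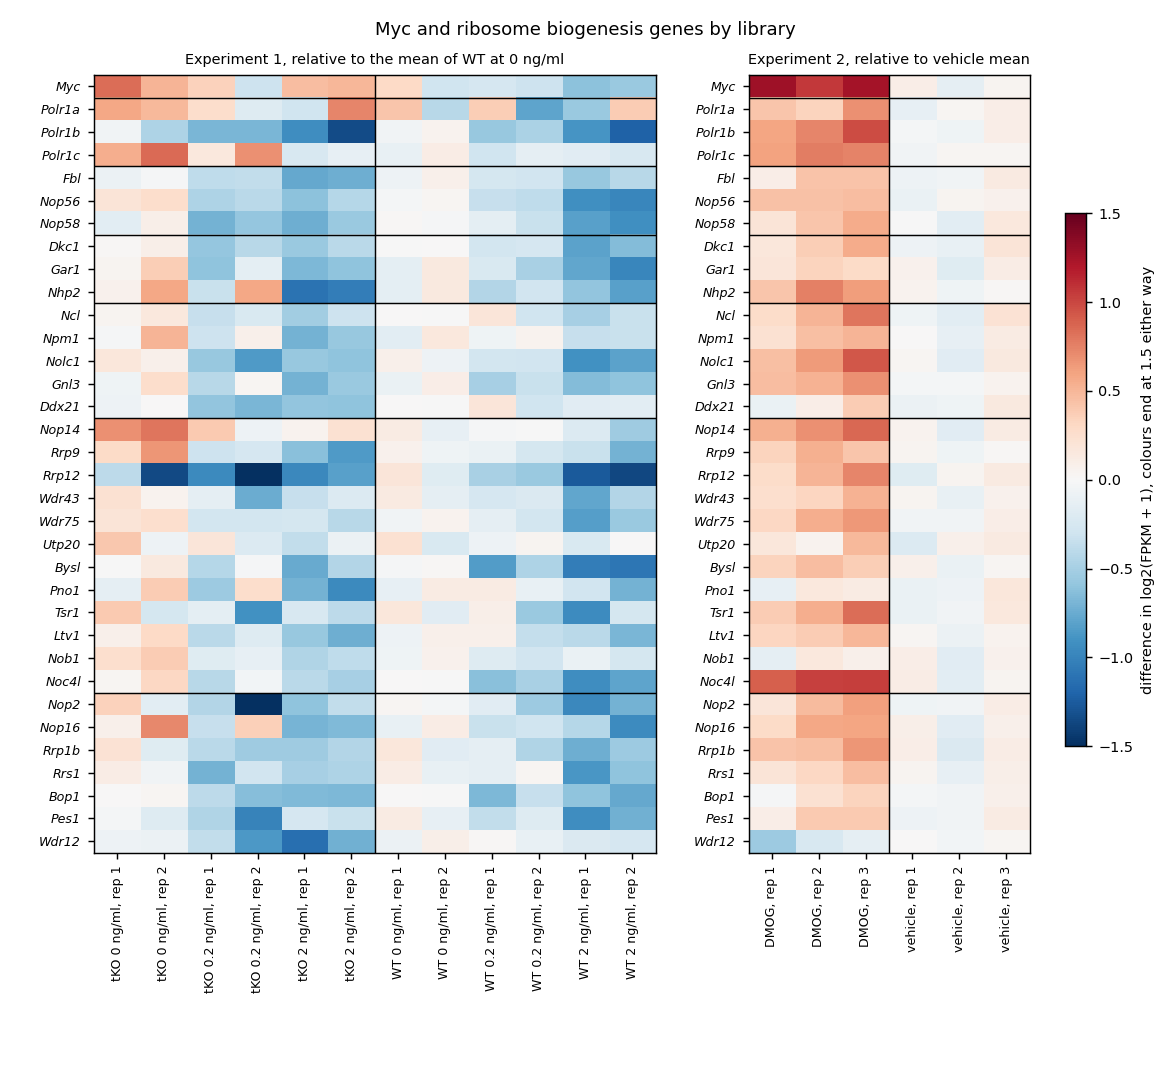
Difference in log2(FPKM + 1) of each of the 34 members (ordered by role, lines between roles) in every library from the mean of WT at 0 ng/ml (left) and from the vehicle mean (right); colours end at 1.5 either way. Most members are blue (lower than WT at 0 ng/ml) at 2 ng/ml TGF-b in both genotypes. Against 0 ng/ml of the same genotype, which for tKO is not the reference of the colours, the medians were -0.65 in tKO and -0.63 in WT. With DMOG, 33 of 34 are on average above vehicle.

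All 3 box C/D proteins of the snoRNPs fell in both genotypes: Fbl (fibrillarin), which methylates ribosomal RNA, and the scaffold proteins Nop56 and Nop58. Nop56 (chr2:130100147-130110187, mm9) had 169 and 193 FPKM in tKO at 2 ng/ml, against 297 and 310 FPKM at 0 ng/ml. WT libraries had 136 and 131 FPKM at 2 ng/ml, against 254 and 264 FPKM at 0 ng/ml. The dose groups did not overlap in either genotype. Its change was -0.74 ± 0.14 in tKO (limma, adjusted p = 0.00372) and -0.95 ± 0.14 in WT (adjusted p = 7.01e-04). Under quantile normalization none of the 3 was called in tKO (adjusted p = 0.125 for Fbl, 0.182 for Nop56 and 0.252 for Nop58). Fbl was also not called in tKO after length correction (-0.35, adjusted p = 0.0852), nor in WT without any of 8 libraries (adjusted p up to 0.218) or under quantile normalization (adjusted p = 0.0858). Nop58 lost its call in tKO without replicate 2 at 0 ng/ml or either replicate at 2 ng/ml (adjusted p up to 0.177). Of the box H/ACA proteins, all 3 fell in tKO and 2 in WT, the enzyme Dkc1 (dyskerin), which converts uridine to pseudouridine, and Gar1. Dkc1 had 101 and 114 FPKM in tKO at 2 ng/ml, against 152 and 159 FPKM at 0 ng/ml, and 85.8 and 95.5 FPKM in WT at 2 ng/ml, against 150.0 and 151 FPKM at 0 ng/ml. Its change was -0.53 ± 0.15 in tKO (adjusted p = 0.0257) and -0.73 ± 0.15 in WT (adjusted p = 0.00567), and the call in tKO was lost without any of these 4 tKO libraries (adjusted p up to 0.169).

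Nhp2, the core protein of box H/ACA particles with the shortest transcript, differed more between libraries. It had 97.2 and 102 FPKM in tKO at 2 ng/ml, against 221 and 317 FPKM at 0 ng/ml, and fell by 1.40 ± 0.26 (adjusted p = 0.00311). In WT it had 140 and 120 FPKM at 2 ng/ml, against 190 and 234 FPKM at 0 ng/ml, a change of -0.70 that was not called (adjusted p = 0.0842). The genotype difference was not called either (-0.70 ± 0.36, adjusted p = 0.329). Over the members, the median change in tKO was -0.88 for the 7 with transcripts under 1500 bases and -0.58 for the 27 longer ones, against -0.69 and -0.63 in WT. Corrected for transcript length, the median over the members was -0.64 in tKO and -0.61 in WT.

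Of the RNA polymerase I subunits, 2 of 3 fell in tKO and 1 of 3 in WT. Polr1b, which encodes the second largest subunit, had 12.0 and 8.78 FPKM in tKO at 2 ng/ml, against 22.9 and 17.0 FPKM at 0 ng/ml. WT libraries had 12.4 and 9.71 FPKM, against 22.9 and 24.8 FPKM. It was low in every library at 2 ng/ml. The change was -0.88 ± 0.23 in tKO (limma, adjusted p = 0.0184) and -1.05 ± 0.23 in WT (adjusted p = 0.00800). In tKO it missed the threshold without replicate 1 at 0 ng/ml or replicate 2 at 2 ng/ml (adjusted p up to 0.169), and in WT it missed the threshold without replicate 2 at 0 ng/ml (adjusted p = 0.0699) or replicate 2 at 2 ng/ml (adjusted p = 0.0792). Polr1c, a subunit that RNA polymerases I and III share, fell in tKO by 0.88 ± 0.19 (adjusted p = 0.00797) and was not called in WT (-0.21, adjusted p = 0.517). Its call in tKO was lost without replicate 2 at 0 ng/ml (adjusted p = 0.0960) or replicate 1 at 2 ng/ml (adjusted p = 0.0729), or replicate 2 at 2 ng/ml (adjusted p = 0.0548). Polr1a, the largest subunit, had overlapping values of 5.54 and 12.4 FPKM at 2 ng/ml and 11.1 and 10.3 FPKM at 0 ng/ml in tKO.

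Nolc1, a chaperone of snoRNPs, and Gnl3 (nucleostemin), a nucleolar GTPase, fell in both genotypes among the nucleolar chaperones and helicases (3 of 5 in tKO, 2 of 5 in WT). Gnl3 lost its call without any of 3 libraries in tKO (adjusted p up to 0.179) and of 8 in WT (adjusted p up to 0.239). Nolc1 had 42.2 and 41.2 FPKM in tKO at 2 ng/ml, against 71.2 and 66.7 FPKM at 0 ng/ml, a change of -0.71 ± 0.17 (limma, adjusted p = 0.0109). WT libraries had 33.2 and 35.6 FPKM, against 66.6 and 59.8 FPKM, a change of -0.86 ± 0.17 (adjusted p = 0.00395). The groups did not overlap. The call was lost in WT without replicate 1 at 0 ng/ml (adjusted p = 0.0536), and in tKO without replicate 2 at 0 ng/ml (adjusted p = 0.0542) or either replicate at 2 ng/ml (adjusted p = 0.0652 and 0.0784). Nolc1 and Nop56 were also the only members called lower at 0.2 against 0 ng/ml in tKO (2 of 34 lower and 0 higher, where 0.782% and 1.7% of all genes were). In WT 0 of 34 were called in limma at that dose (0.676% of all genes lower and 0.918% higher). At an unadjusted p under 0.05 there were 6 members in WT (11.2% of all genes) and 22 in tKO (15.6%). The median change of the members at 0.2 ng/ml was -0.50 in tKO and -0.25 in WT, against 0.02 and -0.02 for all genes. Every library at 0.2 ng/ml lay below every library at 0 ng/ml for 25 members in tKO (17.9% of all genes). In WT this held for 21 members (26.1%). The RNA-binding protein Ncl (nucleolin) was not called in tKO (-0.52, adjusted p = 0.0603) or in WT (-0.41, adjusted p = 0.139).

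Of the 12 small subunit factors, 7 fell in tKO and 4 in WT. Rrp9, a protein of the U3 snoRNP, had 41.6 and 35.7 FPKM in tKO at 2 ng/ml, against 79.6 and 103 FPKM at 0 ng/ml, and fell by 1.22 ± 0.19 (limma, adjusted p = 0.00109). In WT it had 51.1 and 39.4 FPKM, against 68.1 and 61.8 FPKM, and was not called (-0.52, adjusted p = 0.0823). Bysl (bystin), which binds precursors of the small subunit, had 33.0 and 41.2 FPKM in tKO at 2 ng/ml, against 56.3 and 62.5 FPKM at 0 ng/ml. WT libraries had 27.0 and 26.2 FPKM, against 56.0 and 57.0 FPKM, and fell by 1.06 ± 0.20 (adjusted p = 0.00331). The fall in tKO (-0.67 ± 0.20, adjusted p = 0.0344) was lost without any of 6 of the libraries, all 4 tKO ones at these doses among them (adjusted p up to 0.236). Bysl and Rrp9 were lower at 2 ng/ml in every library of both genotypes. Rrp12, which acts in export and late maturation of the subunits, fell in WT (-1.31 ± 0.32, adjusted p = 0.0153) and was at -0.02 in tKO (adjusted p = 0.976). The genotype difference for Rrp12 was 1.29 ± 0.46 and was not called (adjusted p = 0.149). It was the 1 member called for this difference when replicate 1 of tKO at 0 ng/ml was left out.

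Of the 7 large subunit factors, 3 fell in tKO (Nop16, Bop1 and Wdr12) and 3 in WT (Rrs1, Bop1 and Pes1). Pes1, Bop1 and Wdr12 form the PeBoW complex, which is needed to process the large subunit RNA. Bop1 changed alike by value, with -0.68 ± 0.17 in tKO (limma, adjusted p = 0.0161) and -0.68 ± 0.17 in WT (adjusted p = 0.0175), calls lost in turn without 3 of the 4 libraries of each genotype (adjusted p up to 0.0998 and 0.123). Pes1 had 64.4 and 61.2 FPKM in tKO at 2 ng/ml, against 75.8 and 67.4 FPKM at 0 ng/ml, and was not called (-0.18, adjusted p = 0.568). In WT it had 40.1 and 46.5 FPKM, against 84.4 and 70.6 FPKM, and fell by 0.82 ± 0.20 (adjusted p = 0.0138), a call lost without replicate 1 at 0 ng/ml (adjusted p = 0.128) or replicate 1 at 2 ng/ml (adjusted p = 0.0892). Wdr12 fell in tKO (-0.84, adjusted p = 0.0129) and not in WT (-0.24, adjusted p = 0.477). The genotype difference was not called for Pes1 (0.64, adjusted p = 0.243), Bop1 (0.00, adjusted p = 1.00) or Wdr12 (-0.60, adjusted p = 0.280).

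The genotype difference of the TGF-b effect was called for 0 of the 34 members in limma, with 5 at an unadjusted p under 0.05 (18.7% of all genes). Of all genes, 1.55% were called higher and 1.43% lower for it. The median of the members for this difference was 0.02. By mean level, 23 members fell at each step from 0 to 0.2 to 2 ng/ml in tKO (19.8% of all genes) and 30 in WT (30.5%). In tKO the exceptions were Ddx21, Dkc1, Myc, Nolc1, Nop2, Nop58, Pes1, Polr1a, Rrp12, Tsr1 and Wdr43, and in WT they were Nob1, Pno1, Polr1a and Polr1c.

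**Figure D3:**
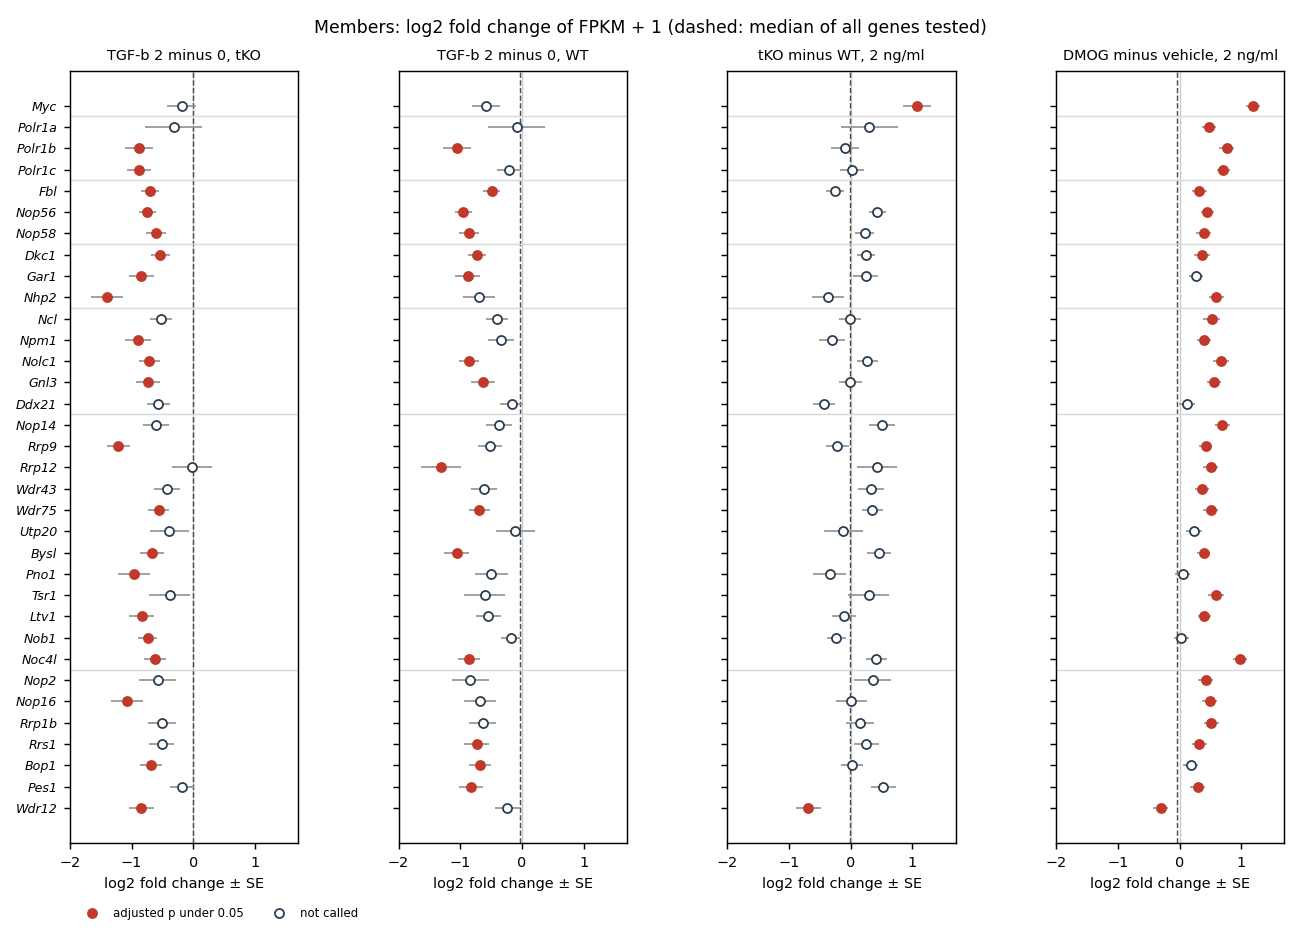
Log2 fold change of FPKM + 1 (horizontal axes, ± SE) for the 34 members in 4 comparisons; filled points have an adjusted p under 0.05 and the dashed line marks the median of all genes. At 2 against 0 ng/ml TGF-b 21 members fell in tKO and 15 in WT, Myc rose and Wdr12 fell in tKO against WT at 2 ng/ml, and 27 members were higher with DMOG.

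The genotypes differed in few of these genes. Over the doses, 4 of 34 members were higher in tKO (13.9% of all genes) and 2 were lower (13.3%), shares that lie near or under those of all genes. Besides Myc, the higher members were Polr1c (0.45 ± 0.11, limma adjusted p = 0.00843), Nop14 (0.48 ± 0.12, adjusted p = 0.0102) and Noc4l (0.30 ± 0.10, adjusted p = 0.0390). Nop14 and Noc4l are partners in a complex of the small subunit precursor. The lower members were the RNA helicase Ddx21 (-0.35 ± 0.11, adjusted p = 0.0266) and Wdr12 (-0.45 ± 0.12, adjusted p = 0.0122). With the doses averaged within each labelled series, which leaves 2 against 2 values, Myc alone was called. Polr1c (adjusted p = 0.0618) and Nop14 (adjusted p = 0.0557) then missed the threshold. Noc4l kept its call without replicate 1 of tKO at 0 or 0.2 ng/ml and lost it without any of the other libraries (adjusted p up to 0.104), and Ddx21 lost it without any of 7 libraries (adjusted p up to 0.0874).

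Nop14 had 40.1 and 43.5 FPKM in tKO at 0 ng/ml, against 27.0 and 22.4 FPKM in WT. At 2 ng/ml it had 25.5 and 28.9 FPKM in tKO, against 21.1 and 16.6 FPKM in WT. It was higher in every tKO library at 0 ng/ml (25.8% of all genes) and at 2 ng/ml (29.1%), and overlapped at 0.2 ng/ml. Polr1c had 112 and 138 FPKM in tKO at 0 ng/ml, against 70.6 and 81.9 FPKM in WT, and 64.5 and 69.6 FPKM in tKO at 2 ng/ml, against 67.4 and 64.0 FPKM in WT. So Polr1c was higher in every tKO library at 0 ng/ml (25.8% of all genes) and overlapped at 2 ng/ml. Polr1c and Nop14 were the 2 members called higher at 0 ng/ml (5.34% of all genes), with none called lower (4.3%). Both calls were lost in a fit of those 4 libraries alone, without the filter on low values, and without any of the WT libraries at 0 and 0.2 ng/ml, either tKO library at 2 ng/ml, or replicate 2 of tKO at 0 ng/ml (0 members called in each case). At 0.2 ng/ml Polr1c was higher (0.64, adjusted p = 0.0419; 9.11% of all genes) and Ddx21 lower (-0.59, adjusted p = 0.0486; 6.38%). The Polr1c call was lost without any of 9 of the 12 libraries, among them replicate 2 of tKO at 0.2 ng/ml (0.37, adjusted p = 0.279), and after length correction (0.39, adjusted p = 0.0501). The Ddx21 call was lost without any of 10 libraries (adjusted p up to 0.345).

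Wdr12 went the other way. In tKO it had 50.4 and 49.9 FPKM at 0 ng/ml, 41.0 and 28.9 FPKM at 0.2 ng/ml, and 23.8 and 32.1 FPKM at 2 ng/ml. In WT it had 49.9 and 56.9 FPKM, 53.9 and 49.2 FPKM, and 45.6 and 44.6 FPKM at these doses. The genotypes overlapped at 0 ng/ml. Every tKO library lay below every WT library at 0.2 ng/ml (27% of all genes) and at 2 ng/ml (32.1%). At 2 ng/ml it was the 1 member called lower (8.16% of all genes), at -0.69 ± 0.20 (limma, adjusted p = 0.0364), beside Myc as the 1 called higher (7.82%). This call was lost without replicate 1 of tKO at 2 ng/ml (-0.48, adjusted p = 0.276) or any of the 6 WT libraries (adjusted p up to 0.130), with no filter on low values (adjusted p = 0.0634) and without the trend (adjusted p = 0.0679). Its entry spans 60133711 to 60207888 of chromosome 1 (mm9), and reads of overlapping neighbours cannot be told apart.

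At 2 ng/ml, 16 of 34 members were higher in every tKO library than in every WT library (29.1% of all genes) and 7 were lower in every tKO library (32.1%). The median of the members was 0.19, against -0.02 for all genes. Corrected for transcript length, 5 members were called, 3 higher and 2 lower, and the median of the members was 0.15, against -0.004 for all genes. The share of all genes called in that fit is not given here.

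DMOG raised most of the members. Of the 34, 27 were higher (27.7% of all genes) and 1 was lower (33.2%). The median of the members was 0.42, against -0.03 for all genes, and 33 of 34 were above 0. For 25 members every DMOG library lay above every vehicle library (30.3% of all genes), and for 1, Wdr12, below (35.4%). DMOG changed 60.8% of all genes tested, so the calls stand within a broad response. Without 1 library, 21 to 29 members were called in either direction.

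All 3 RNA polymerase I subunits rose with DMOG. Polr1b had 14.2, 15.7 and 18.9 FPKM with DMOG, against 8.85, 8.61 and 9.81 FPKM with vehicle (0.77 ± 0.12, limma adjusted p = 3.38e-05). Polr1c had 53.1, 59.4 and 58.6 FPKM, against 33.1, 35.2 and 35.1 FPKM (0.71 ± 0.11, adjusted p = 2.27e-05). Neither gene overlapped between the groups. All 3 box C/D proteins rose too. Fbl lost this call without any of 4 of the 6 libraries (adjusted p up to 0.135) and Nop58 without any of 2 (adjusted p up to 0.0782). Nop56 had 109.6, 109.9 and 112 FPKM with DMOG, against 75.1, 82.6 and 84.3 FPKM with vehicle, a difference of 0.45 ± 0.11 (adjusted p = 0.00144).

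Among box H/ACA proteins, Nhp2 and Dkc1 rose, Dkc1 with a call lost without any of 3 libraries (adjusted p up to 0.120), and Gar1 did not pass the test (0.27, adjusted p = 0.0508). Nhp2 had 81.4, 104 and 94.4 FPKM with DMOG, against 63.1, 58.1 and 61.9 FPKM with vehicle (0.60 ± 0.12, limma adjusted p = 2.69e-04). Of the nucleolar chaperones and helicases, Ncl, Npm1, Nolc1 and Gnl3 rose. Nolc1 had 38.0, 43.4 and 53.3 FPKM with DMOG, against 28.1, 24.4 and 30.5 FPKM with vehicle (0.67 ± 0.13, adjusted p = 2.98e-04). These groups did not overlap. Ddx21, the member lower in tKO, had 55.5, 64.0 and 78.2 FPKM with DMOG, against 56.1, 57.0 and 66.4 FPKM with vehicle, and overlapped (0.13, adjusted p = 0.412).

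Of the 12 small subunit factors 9 rose with DMOG, Noc4l with the largest difference. It had 42.1, 46.3 and 46.6 FPKM with DMOG, against 24, 19.8 and 22.9 FPKM with vehicle (0.99 ± 0.11, limma adjusted p = 8.87e-07). Its partner Nop14 had 21.7, 24.2 and 27.5 FPKM, against 15.3, 12.9 and 16.1 FPKM (0.69 ± 0.12, adjusted p = 1.07e-04). Both were also called higher in tKO over the doses, calls that neither kept with the doses averaged per labelled series (adjusted p = 0.175 for Noc4l and 0.0557 for Nop14) and that Noc4l lost without any of 10 libraries. The members that did not pass the test were Utp20 (0.24, adjusted p = 0.127), Pno1 (0.05, adjusted p = 0.717), which binds the small subunit RNA, and Nob1 (0.03, adjusted p = 0.833), the enzyme that makes the final cut of that RNA. Pno1 and Nob1 act together in the last steps. Of the 7 members with the E-box, 5 rose, against 27 of all 34. The 4 whose promoters are shown were chosen by their p with DMOG, so their values are a description: Tsr1 at 0.59, Ltv1 at 0.40, Nop2 at 0.42 and Wdr43 at 0.37. Of the other 3, Pes1 rose, and Utp20 and Pno1 did not pass the test.

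Of the 7 large subunit factors 5 rose, Rrp1b with the smallest p. It had 10.4, 10.5 and 12.4 FPKM with DMOG, against 8.05, 6.27 and 8.16 FPKM with vehicle (0.51 ± 0.12, limma adjusted p = 0.00148). In the PeBoW complex, Pes1 rose (0.29, adjusted p = 0.0395), a call lost without any of 4 of the 6 libraries (adjusted p up to 0.154), Bop1 did not pass the test (0.18, adjusted p = 0.195) and Wdr12 fell. Wdr12 had 8.58, 10.9 and 11.7 FPKM with DMOG, against 13.1, 12.6 and 13.3 FPKM with vehicle. Each DMOG library was lower, and the difference of -0.31 ± 0.12 (adjusted p = 0.0346) was lost without replicate 1 of DMOG (-0.19, adjusted p = 0.193) or without any of the vehicle replicates (adjusted p = 0.0832, 0.0636 and 0.106), and with the highest of its 3 entries in place of their sum (-0.24, adjusted p = 0.0925). Wdr12 was the 1 member called lower both with DMOG (33.2% of all genes) and in tKO at 2 ng/ml (8.16%). Between these comparisons 21 members were above 0 in both, and 12 were above 0 with DMOG and below 0 in tKO. With DMOG 33 of 34 were above 0 (47.5% of all genes), so the 21 are all the members above 0 in tKO (48.5% of all genes). The count therefore says nothing of agreement between the comparisons.

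The wider pathway was read from lists of genes that are not members, also chosen with earlier results of these data known. With TGF-b at 2 against 0 ng/ml, 9 of 40 other small subunit factors fell in tKO and 6 of 40 in WT, and 15 of 42 other large subunit factors fell in tKO and 13 in WT. Of 24 Myc targets outside the nucleolus, 15 fell in tKO and 14 in WT, such as Srm (spermidine synthase) in tKO (-1.74 ± 0.21, limma adjusted p = 1.73e-04) and Tfrc (transferrin receptor) in WT (-1.17 ± 0.17, adjusted p = 6.50e-04). No gene of these lists was called higher there. Of 11 other genes of the RNA polymerase I machinery, 1 fell in tKO and 0 in WT, where 7.91% of all genes were called lower.

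With DMOG, 28 of 43 other large subunit factors and 17 of 41 other small subunit factors rose, and 0 and 2 fell. Of all genes, 27.7% were called higher with DMOG and 33.2% lower. Of 25 Myc targets 20 rose and none fell, with Ccnd2 (cyclin D2) at 1.89 ± 0.12 (limma, adjusted p = 2.76e-10) and Prmt1, an arginine methyltransferase, at 1.12 ± 0.11 (adjusted p = 1.90e-07). Of the RNA polymerase I machinery 2 of 11 rose and 3 fell, and Rrn3, the initiation factor that recruits the polymerase, was among those higher (0.73 ± 0.11, adjusted p = 1.46e-05). Ccnd2 was also higher in tKO over the doses (1.34 ± 0.11, adjusted p = 1.00e-06). Most Myc targets of the list were not: 3 of 24 were called higher there (13.9% of all genes) and 0 lower, with a median of 0.08. T cell markers moved with the same comparison: all 8 fell with DMOG, with a median of -1.24, and their sum was 1051 to 1368 FPKM with DMOG and 2397 to 2760 FPKM with vehicle. Markers of other cells moved as well, with the dendritic list at 181 to 296 FPKM with DMOG and 93.5 to 113 FPKM with vehicle. The B cell list was at 0.843 to 1.20 FPKM and 6.85 to 11.3 FPKM, and the myeloid list at 0.119 to 0.344 FPKM and 6.65 to 7.13 FPKM. Only 1 gene of each of these 3 lists passed the filter, in the dendritic list Cd74 (1.07, limma adjusted p = 1.16e-05). Of the CD8 markers, Cd8a was higher (1.25, adjusted p = 1.43e-07) and Cd8b1 was not called (-0.22, adjusted p = 0.202). The part of all these markers in the rise of the members was not tested.

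The genes of the ribosomal proteins, the products of the pathway's other arm, had medians that differed from those of the assembly factors. In tKO they had a median change of -0.88 at 2 against 0 ng/ml TGF-b, with 60 of 73 called lower, and in WT a median of 0.25, with 3 of 73 called higher (7.79% of all genes). These 3 calls in WT became 0 without any of 8 of the 12 libraries, all 4 WT ones compared among them, and 7 without either tKO library at 0.2 ng/ml. In tKO against WT at 2 ng/ml, 64 of 73 were lower, with a median of -0.93. With DMOG 5 of 78 were higher (27.7% of all genes) and 2 lower (33.2%), with a median of -0.01. Without replicate 1 of DMOG 17 were higher and 0 lower, without replicate 2 of DMOG 3 and 4, without replicate 3 of DMOG 2 and 0, and without 1 of the vehicle libraries 3 to 5 and 0 to 1. Short transcripts were low in both tKO libraries at 2 ng/ml. Corrected for transcript length, 35 of 73 were lower in tKO at 2 against 0 ng/ml (median -0.32) and 53 of 73 in tKO against WT at 2 ng/ml (median -0.48). In the fits without this correction the counts were 60 and 64, and only those fits were repeated without single libraries. The counts fell to 7 and 8 without replicate 2 of tKO at 2 ng/ml, to 24 and 33 without replicate 1, to 8 for the first without replicate 2 of tKO at 0 ng/ml, and to 19 and 38 for the second without replicate 1 or 2 of WT at 2 ng/ml.

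**Figure D4:**
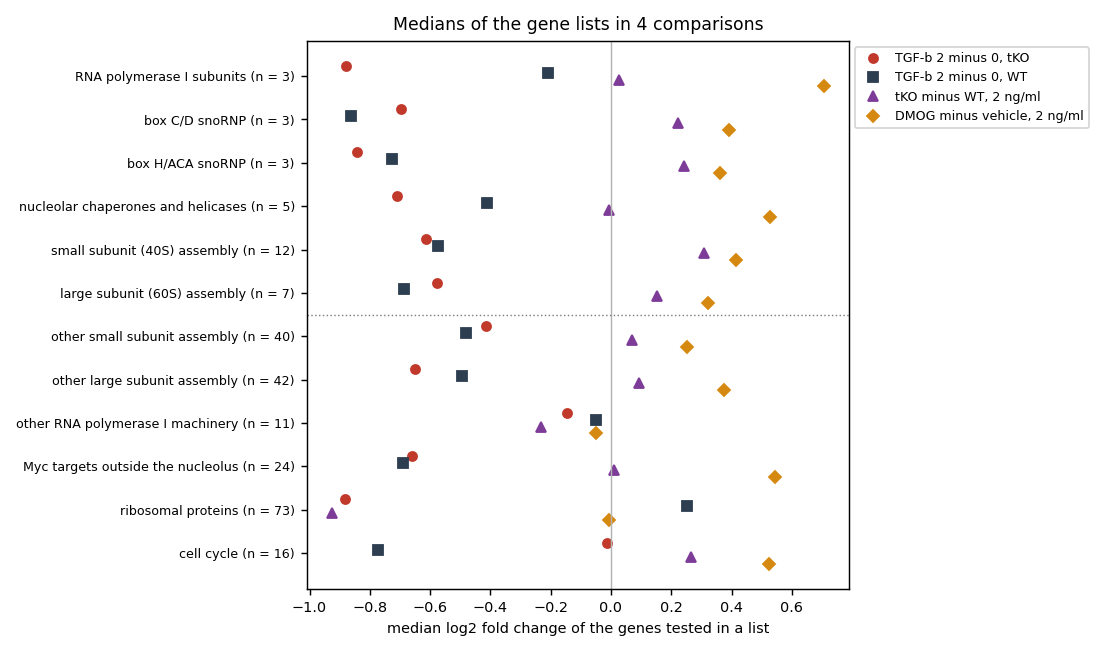
Median log2 fold change (horizontal axis) of the genes tested in each role group of the members (above the dotted line) and in each list of other genes (below it) in 4 comparisons; n is the number tested in experiment 1. The ribosomal proteins lie at -0.88 and 0.25 for TGF-b at 2 ng/ml in tKO and WT and at -0.01 with DMOG, while the RNA polymerase I subunits lie at 0.71 with DMOG.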

How the data were processed

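Libraries came from a kit for low RNA input (SMARTer Ultra), which does not mark strand, and sequenced on different instruments in the 2 experiments, per the labels' protocols. The authors deposited FPKM values for each library in 1 table per experiment, per the file headers; the depth of the libraries is unknown, so no intervals for counting error are given, and values were compared only within a table. Per the submitters' processing notes the tools were Trimmomatic, TopHat, Cufflinks and Cuffdiff, on build mm9. What each tool did, and its version, is not given in the sources used here.

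Exact duplicate entries were dropped (18 and 291), 8482 entries with no symbol were left out of experiment 1, and distinct entries of a symbol were summed. Genes that averaged 1 FPKM or more (10354 and 9884) were fitted as log2(FPKM + 1) with limma 3.58.1 (trend) in R 4.3.3, with 1 coefficient per group and all libraries of an experiment sharing the spread. A fold change on this scale understates the change of low genes. P-values are two-sided and adjusted by the Benjamini-Hochberg method over all genes of a comparison, and a gene is called, rises or falls at an adjusted p under 0.05. The fits were tested on simulated data. The members and lists were chosen with earlier results of these data known. Members were named with values in every library where they had the smallest p of their role, or went against most members. Of the other lists, the called genes with the smallest p were named. Coordinates of genes are those of the tables (mm9); promoters are RefSeq sequences of GRCm38.p6. Transcript lengths came from GENCODE M21 and were found for 89.3% and 93.4% of the genes tested. Alternatives were another pseudocount (0.1), a minimum of 5 FPKM or none, quantile normalization, median centring, the highest entry per symbol, limma without the trend, fits of the compared groups alone, replicate or series terms, leaving out each library and, chosen after seeing the data, a correction for transcript length (loess).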

Additional observations from a re-analysis of the deposited data

Results flagged for a closer look

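A difference between the genotypes in the effect of 2 against 0 ng/ml TGF-b, tested as an interaction in limma, was called for 31 of 73 ribosomal protein genes, all lower in tKO, with a median of -1.16. Of all genes, 1.43% were called lower for it. The count was 44 (median -0.61) after correction for transcript length and 24 (median -0.46) after quantile normalization. The count of 31, from the fit with neither change, was also taken without single libraries. It was 0 without replicate 2 of tKO at 0 ng/ml, without either tKO library at 2 ng/ml, or without replicate 1 of WT at 0 or 2 ng/ml, and 1 or 2 without replicate 2 of WT at 2 or 0 ng/ml. Short transcripts deviated in 3 of these tKO libraries, and their part in the difference was not tested beyond this correction.

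Of 9 Myc partners and antagonists, 2 were called for the same difference, Mxd4 lower (-2.24 ± 0.29, adjusted p = 0.00182) and Mxd1, another Max-binding repressor, higher in tKO (1.92 ± 0.32, adjusted p = 0.00775). Of 16 cell cycle genes 1 was called, the mitotic kinase Plk1 (0.92 ± 0.21, adjusted p = 0.0365). None of the 34 members was.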

How the results depend on the processing

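No called member value reversed its direction: of 78, 45 lost the call without at least 1 library and 33 under at least 1 other alternative. Without 1 library the members called were 4 to 7 over the doses, 0 to 3 at 0, 0 to 8 at 0.2 and 0 to 4 at 2 ng/ml for tKO against WT; 0 at 0.2 and 7 to 20 at 2 ng/ml for TGF-b in WT; 0 to 8 and 5 to 25 in tKO; 0 to 1 for the genotype difference; and 21 to 29 for DMOG. For tKO against WT, averaging the doses per labelled series left 1 call over the doses; at 0 ng/ml 0 remained with no filter, without the trend or with the compared groups alone. At 0.2 ng/ml 1 remained with a pseudocount of 0.1 or no filter, and 0 with median centring, without the trend or with the compared groups alone. At 2 ng/ml 5 were called after quantile normalization and 5 after length correction, 4 with the compared groups alone and 1 without the trend. For TGF-b in tKO at 0.2 ng/ml, 0 were called without the trend or with the compared groups alone, 7 after length correction and 6 with the series as a random factor; at 2 ng/ml quantile normalization left 11. The replicate numbers do not pair the libraries of experiment 2 (correlations of DMOG and vehicle libraries of -0.14, -0.19 and 0.44). In experiment 1 same-number libraries correlated above 0 in 13 of 15 pairs of groups (-0.11 to 0.42), but with 2 libraries a group, and labels that tie no number to a shared animal across genotypes, a pairing was not established; with a replicate block the count for tKO at 0.2 ng/ml was 4, and no other count moved by over 1.5 times. For Myc, where not called, the sign turned for TGF-b at 2 ng/ml in tKO after quantile normalization (0.24), for tKO against WT at 0.2 ng/ml without replicate 1 of that tKO group (-0.027; 0.63 without replicate 2), and for TGF-b at 0.2 ng/ml in WT without replicate 1 at 0 ng/ml (0.015; -0.58 without replicate 2). The cause was not tested. With 2 or 3 libraries a group and unknown depth, small differences of low members such as Utp20 could not be resolved. The shares of all genes called in these alternative fits are not given here. A change in the count of members called was therefore not set against a change over all genes.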

Other observations

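Genes of the cell cycle were measured beside the members. At 2 against 0 ng/ml TGF-b, 2 of 16 were higher and 2 lower in tKO, and 11 of 16 fell in WT, with medians of -0.01 and -0.77. In tKO the proliferation marker Mki67 was higher (0.71 ± 0.19, limma adjusted p = 0.0212) and the kinase Cdk1 lower (-0.57 ± 0.17, adjusted p = 0.0371). In WT Plk1 fell by 0.86 ± 0.15 (adjusted p = 0.00184) and the mitotic kinase Aurkb by 0.90 ± 0.17 (adjusted p = 0.00347). With DMOG 13 of 16 rose, with a median of 0.53, among them Rrm2, a subunit of ribonucleotide reductase (0.78 ± 0.11, adjusted p = 1.52e-05).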
